A study of Drosophila melanogaster with 3 samples.

Results

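Nuclear transfer RNA genes on the list of FMRP target genes of adult Drosophila melanogaster are described here. The members are all target names that begin with tRNA:, grouped by the amino acid and anticodon written in the name. There are 89 of them among 1829 target names, and each of the 89 matched a current gene symbol. The gene table of Drosophila Release 6 holds 290 nuclear tRNA genes, so 201 were off the target list. None of the 22 mitochondrial tRNA genes and none of 5 tRNA pseudogenes was listed.

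A tRNA carries an amino acid to the ribosome and reads the codon with its anticodon. It is transcribed by RNA polymerase III as a precursor with a short 5′ leader and a 3′ trailer, which are removed, and in a few genes an intron next to the anticodon is spliced out. The mature RNA folds into an acceptor stem, a D arm, an anticodon arm, a variable region and a T arm, and carries many modified bases. FMRP, encoded by Fmr1, the fly counterpart of the human fragile X gene, binds RNA and is known for repressing translation and for associating with ribosomes.

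The study mapped FMRP contacts by enhanced CLIP, which crosslinks RNA to protein with ultraviolet light and sequences what comes down with the protein, next to an input cut to the same size range. Per the labels there were 2 FMRP immunoprecipitates made with FLAG beads, whose cell type is given as intestinal progenitor cells, and 1 size-matched input, whose cell type is given as all cells. Each came from 200 whole adult flies, 100 of each sex, and no genotype, tag design, treatment or age is labelled, so cell type and pull-down cannot be told apart between input and immunoprecipitate. The values are 1 list of 60497 sites, each 1 nt wide with a strand and the authors' score of unstated unit, and 1 list of target names, with no value per library. In whole animals, fewer cells of a type and less RNA per cell cannot be told apart. No difference between libraries could therefore be tested, the depth is unknown, and every count and score below is a description of these lists. On the target list were 6 of 6 intestinal progenitor, 4 of 6 enterocyte, 2 of 4 muscle and 4 of 4 ovary markers. The share over all genes of the table was 10.2%. The marker lists were chosen with earlier results of these data known, so these counts are no check of the labelled cells.

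Names of tRNA genes were common on the list. Of all nuclear tRNA genes, 30.7% were listed (95% exact interval 25.4 to 36.3), where 10.2% of all 17872 genes of the table and 11.2% of protein-coding genes were. Listed shares were 34.9% of snoRNA genes, 21.9% of snRNA genes and 4.20% of miRNA genes. Listed tRNA genes covered 20 of 22 amino acid classes, counting initiator methionine (iMet) and selenocysteine (SeC) as classes, and 41 of 45 anticodon groups. No gene was listed for His-GTG, Ile-TAT, Leu-CAG or Trp-CCA. Of these, the Ile, Leu and Trp groups each had 1 gene off the list with a site, and the 5 His-GTG genes had none.

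Coverage differed among amino acids. Proline had 9 of 17 genes listed, glutamate 8 of 19, leucine 9 of 22, glutamine 5 of 12 and cysteine 3 of 7. Phenylalanine had 1 of 8, methionine for elongation 1 of 6 and isoleucine 2 of 11. Counted by distinct mature sequence, proline had 5 of 5 listed, glutamate 4 of 4, leucine 8 of 9, glutamine 5 of 6 and cysteine 3 of 4. In the same count phenylalanine had 1 of 1, methionine for elongation 1 of 2 and isoleucine 1 of 2. The only SeC gene, which inserts selenocysteine at recoded stop codons, was listed. By anticodon, Leu-TAA had 4 of 4 genes listed, Ser-TGA 2 of 2 and Ala-TGC 2 of 2, whereas Arg-ACG had 1 of 10 and Ala-AGC 2 of 12. Counted by distinct mature sequence, these were 4 of 4, 2 of 2, 2 of 2, 1 of 1 and 2 of 2. By chromosome the listed share was 31 of 98 on 2R, 25 of 79 on 3R, 16 of 41 on 2L, 11 of 48 on 3L and 6 of 24 on X.

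**Figure D1:**
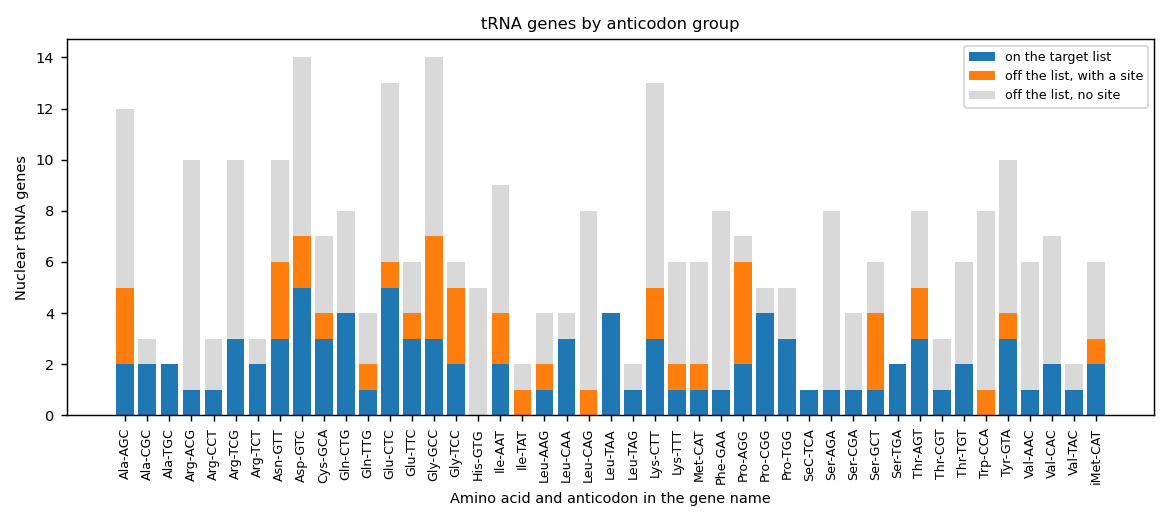
Number of nuclear tRNA genes (vertical axis) in each group of the same amino acid and anticodon (horizontal axis), split into genes on the target list, genes off the list with at least 1 site, and genes off the list with none. All 4 Leu-TAA genes are listed, and no His-GTG gene has a site.

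Listing went with the number of gene copies. In tRNA gene names, the first number after the anticodon marks a distinct mature sequence and the second marks the copy, so genes that share the first number form a sequence family with the same mature RNA. Of the 38 genes that are alone in their family, 33 were listed (86.8%, exact interval 71.9 to 95.6). Of the 252 genes in families of several copies, 56 were listed (22.2%, 17.2 to 27.9), with 31.7% in families of 2 to 4 genes, 19.2% in those of 5 to 9 and 18.8% in those of 10 or more. Counted by family the shares lay closer, with a listed gene in 33 of 38 single-gene families and in 33 of 46 larger ones. Reads from identical copies cannot be told apart within the mature sequence, how such reads were placed is not given in the sources used here, and their part in this difference was not tested.

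Nearly all listed tRNA genes held a site. A site lay in the span of 86 of the 89 (96.6%, exact interval 90.5 to 99.3), beside 99.8% of all listed genes that matched the table and 15% of all its genes. Of the 201 tRNA genes off the list, 40 held a site (19.9%). The members held 650 sites, which is 1.07% of the whole site list and 91.7% of the sites in nuclear tRNA genes. A member had a median of 8 sites, with quartiles of 3 and 11 and a range of 0 to 17, and 28 members had 10 or more. The 40 genes off the list had a median of 1 site and at most 4. The target list and the sites come from the same data, so this contrast is not independent of the listing. Sites per length were dense: the median was 11 sites per 100 nt in listed tRNA genes, 7.96 in listed snoRNA genes, 7.93 in listed snRNA genes, 4 in listed miRNA genes and 0.252 in listed protein-coding genes, whose spans include introns.

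The gene table gives no strand, so the strand was taken from the sites. In 95 tRNA genes with 2 or more sites, 0 had sites on both strands. Among the members, sites were on the plus strand in 41 and the minus strand in 45. Positions below count from 1 at the 5′ end of the gene as read on that strand. They would be mirrored for a gene that is transcribed from the other strand.

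The authors' scores were high in these genes. The median score was 15.3 over the sites in members, 3.82 over those in tRNA genes off the list and 2.78 over all sites. The target list and the scores come from the same data, so the contrast with genes off the list is not independent of the listing. The highest score of a member had a median of 66.5, with quartiles of 19.2 and 189, and ran from 0.466 to 708. Medians of the same measure were 15.9 for listed snoRNA genes, 13.7 for listed snRNA genes, 26.7 for listed miRNA genes and 11.7 for listed protein-coding genes. At least 1 site at or above the upper quartile of all scores, 6.39, was present in 79 of 89 members (88.8%). The share was 78.9% over all listed genes that matched. Among listed genes with a site, it was 91.9% for tRNA, 92.6% for snoRNA, 71.4% for snRNA and 100% for miRNA genes. For protein-coding genes it was 76.8%. Of the 200 highest-scoring sites in the whole list, 102 (51%) lay in 37 members, and 26 lay on unplaced scaffolds, the rDNA or the mitochondrial genome. None of the 200 lay in a tRNA gene off the list or in a snoRNA, snRNA or miRNA gene. Among the 600 highest, 167 lay in members.

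The largest score, 708.396, is a ceiling shared by 18 sites, 14 of them in 5 members. It equals the negative natural logarithm of the smallest normal double-precision number to the digits given, and the next score in the list is 598, so sites at the ceiling have no order among themselves. tRNA:Ser-TGA-1-1, a serine tRNA gene on 2R, had 6 of its 9 sites at the ceiling, and all 9 formed a single run from position 44 to 52 (23072049 to 23072057). tRNA:Ala-TGC-1-1 and tRNA:Ala-TGC-2-1, neighbours on 2R with sites on opposite strands, had 2 ceiling sites each. Their 9 and 10 sites both ran from position 32 to 45 and shared 9 positions. tRNA:Leu-CAA-1-1 had 2 ceiling sites among 10, and tRNA:Glu-TTC-1-6 had 2 among 7, at positions between 19 and 34.

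**Figure D2:**
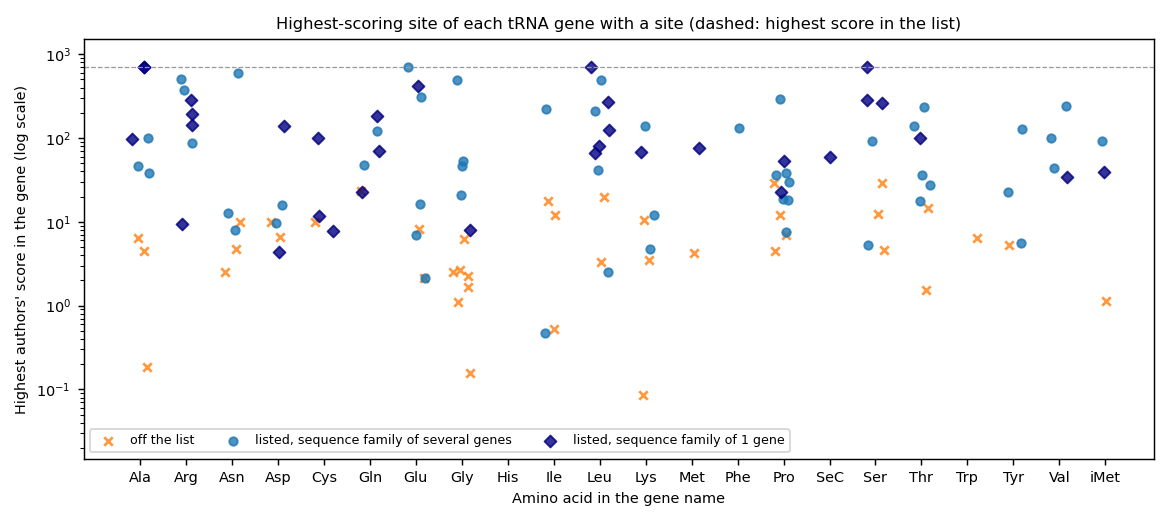
Highest authors' score in each tRNA gene with a site (vertical log axis) by amino acid (horizontal axis, points spread sideways for visibility), for listed genes alone in their sequence family, listed genes with sister copies and genes off the list. The dashed line is the ceiling of 708, reached by 5 listed genes, and the highest value off the list is 29.3.

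The 12 members with most sites, ties broken by the highest score, came from 9 amino acid classes; 3 more genes with 12 sites fell outside by that rule. tRNA:Ser-GCT-1-1 led with 17 sites between positions 34 and 67 (22397195 to 22397228 on 3R), a median score of 14.7 and a highest score of 261. tRNA:Leu-AAG-1-1 had 16 sites between positions 25 and 55 and a highest score of 495. tRNA:Pro-CGG-2-2 had 16 sites between positions 8 and 57 and a highest score of 296. These genes had sites in several arms.

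tRNA:Phe-GAA-1-7 had 16 sites between positions 35 and 58, with the highest score, 132, at position 47. It was the only listed gene of its family of 8, and no other phenylalanine gene held a site. tRNA:iMet-CAT-1-1, an initiator tRNA that starts protein synthesis, had 14 sites from position 8 to 57, with the highest score, 91.6, at position 15. The other listed initiator gene, tRNA:iMet-CAT-2-1, had 11 sites and shared 9 positions with it. Both initiators had sites in the D arm and in the anticodon arm.

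tRNA:Leu-TAA-2-1 had 14 sites between positions 34 and 48 and a highest score of 125. tRNA:Leu-TAA-4-1 had 13 sites in a run without a gap from position 34 to 46, the longest run in any member, and a highest score of 272. tRNA:Arg-ACG-1-7 had 13 sites between positions 33 and 56, with 370 at position 47. The sites of both Leu-TAA genes lay in the anticodon arm and behind it, while tRNA:Arg-ACG-1-7 also had sites in the T arm, at positions 54 to 56.

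tRNA:Val-TAC-1-2 had 13 sites spread from position 18 to 58, with 242 at position 33. tRNA:Cys-GCA-2-1 had 13 sites from position 19 to 57, with 101 at position 36. tRNA:Gln-CTG-3-1 had 12 sites from position 15 to 41, with 183 at position 35. tRNA:Gln-CTG-4-1 differed from these, since its 13 sites all lay between positions 9 and 26, with 69.5 at position 18. Across the 86 members with a site, the number of sites and the highest score rose together (Spearman's rho 0.65, a description only, since both come from the same libraries and depth).

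Where in the tRNA the sites lay was read first in the genes of 71 to 74 nt, which have neither an intron nor a long variable arm. Of the 71 such members, 68 held sites, 487 in all. The arms were taken as fixed ranges of position and are approximate, because D loops differ in length and base sequence was not analysed here. The anticodon arm, positions 27 to 43, held 47.6% of the sites (exact interval 43.1 to 52.2), in 49 of the 68 genes. The D arm, positions 10 to 26, held 21.4% (17.8 to 25.3), the T arm, positions 49 to 65, held 16.2% (13.1 to 19.8), and the variable region, positions 44 to 48, held 11.5% (8.80 to 14.7). The 5′ acceptor side, positions 1 to 9, held 3.29% (1.89 to 5.28). The 3′ acceptor side from position 66 on held 0 of 487 sites (exact upper bound 0.755%). A read that starts there is short, the shortest read kept is not given, and its part in this 0 was not tested. Neighbouring sites are not independent, so these intervals cover counting error only.

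Within the arms the sites fell into narrow peaks. Position 35, near the middle of the anticodon, had a site in 34 of 68 genes, more than any other position, and positions 32 to 38 together had one in 45. Positions 15 to 20 in the D loop had a site in 26 genes, positions 45 to 47 in 24, and positions 56 to 60 in 31. The highest-scoring site of the gene lay at positions 32 to 38 in 23 genes, 15 to 20 in 13, 45 to 47 in 9 and 56 to 60 in 13. Median scores were 19.5 at positions 32 to 38, 18 at positions 45 to 47, 8.24 at positions 15 to 20 and 4.29 at positions 56 to 60. Over all members and lengths, the middle of 3 equal parts of the gene held 67.7% of the sites, the part at the 5′ end 16.8% (exact interval 14 to 19.9) and the part at the 3′ end 15.5%.

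**Figure D3:**
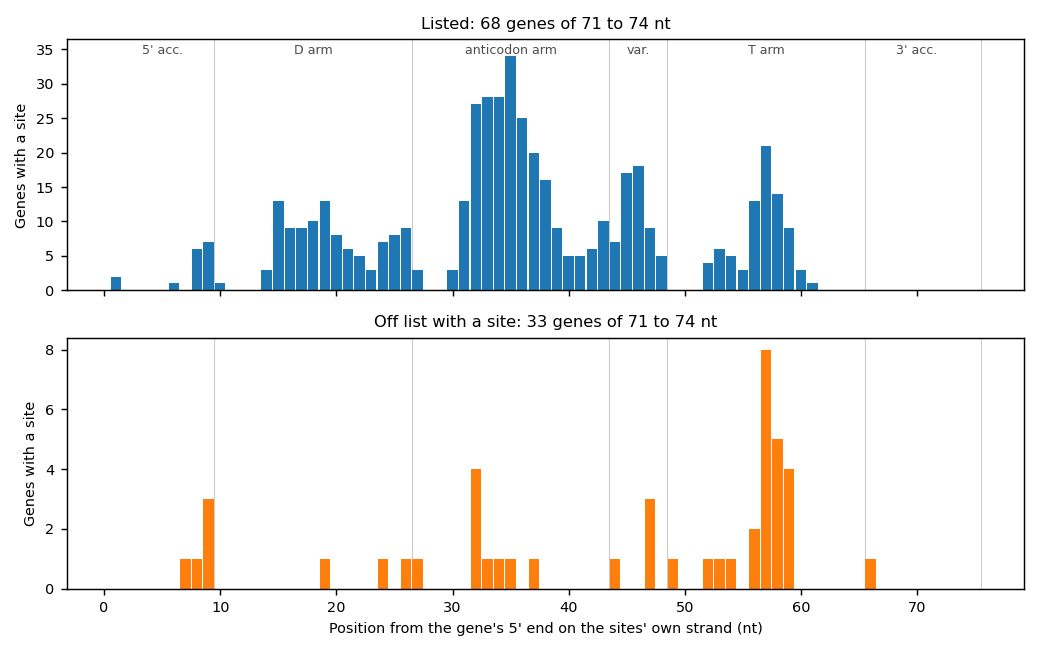
Number of tRNA genes with a site (vertical axes) at each position from the 5′ end (horizontal axis, nt), for genes of 71 to 74 nt on the target list (top, 68 genes) and off it with a site (bottom, 33 genes). Vertical lines mark approximate arm borders. The listed genes peak at position 35 with 34 genes, and the others at position 57 with 8.

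Amino acid classes are described by these peaks, with few genes in each and no test of the differences. All 5 listed glutamine genes had sites at positions 16 and 17 in the D loop, with scores of up to 69.5 at positions 15 to 20. All 4 listed valine genes had a site at position 19. In contrast, none of the 7 arginine and 6 alanine genes had one at positions 15 to 20. The arginine genes all had sites at positions 32 to 38, with a median score of 32.4, and 5 of the 6 alanine genes had a site at position 35.

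All 4 listed lysine genes had a site at position 46, and 3 of them had one at position 54. Of the 4, 3 are copies of a single family, Lys-CTT-1. Position 46 was not particular to lysine, with a site in 18 of the 68 genes, 4 of the 7 arginine genes among them. The 3 lysine genes off the list with a site had it at positions 58, 37 and 44. The Lys-CTT genes had few others: tRNA:Lys-CTT-1-2 and tRNA:Lys-CTT-1-5 had sites at positions 46 and 54 alone, and tRNA:Lys-CTT-1-3 had its highest score, 139, at position 46. The 3 listed asparagine genes, all copies of a single family of 10, had sites at positions 34, 35 and 36. Their highest scores differed, with 598 in tRNA:Asn-GTT-1-7, 8.0 in tRNA:Asn-GTT-1-8 and 12.6 in tRNA:Asn-GTT-1-9. How reads were placed among these copies is not known, and its part in the difference was not tested.

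Many proline and threonine genes had sites at positions 56 to 60, in 7 of 9 and 5 of 6 listed genes. Position 57 carried a site in the same 7 proline genes, and in tRNA:Pro-AGG-1-1, tRNA:Pro-AGG-1-2 and tRNA:Pro-TGG-1-5 all sites lay at positions 56 to 58. The proline genes tRNA:Pro-CGG-1-1 and tRNA:Pro-CGG-3-1 had none there, and their sites lay between positions 9 and 40 and between 1 and 25. In tRNA:Thr-AGT-1-2, tRNA:Thr-AGT-1-5 and tRNA:Thr-TGT-2-5 all sites lay at positions 56 to 60. Positions 8 and 9 had a site in 10 of the 68 genes, among them both initiator genes, 3 of 5 glycine and 3 of 9 proline genes. The highest score at those positions, 427, was in a glycine gene.

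Site positions counted from the 5′ end were more alike within a family than between amino acids. For each pair of the 68 genes, the positions with a site in both were divided by the positions with a site in either. The median of that ratio was 0.25 over 23 pairs of the same sequence family, 0.17 over 32 pairs of the same anticodon but another family, 0.16 over 93 pairs of the same amino acid but another anticodon, and 0.071 over 2130 pairs of different amino acids. No position was shared in 8.70% of pairs of the same family and in 44.1% of pairs of different amino acids. Pairs of the same family may draw on the same reads, and pairs that share a gene are not independent. The genes differ in length, from 71 to 74 nt, so bases equally far from the 3′ end can fall at different positions. The part of length in these ratios was not tested.

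A single base near the 3′ end stood out once positions were counted from that end. The 16th base from the 3′ end had a site in 29 of the 86 members with sites, from 13 amino acid classes, and in 22 of the 40 genes off the list with sites. Copies of the same sequence family were counted as separate genes and may draw on the same reads. The 16th base was the highest-scoring base in 13 members and in 20 genes off the list. Of those 20, 17 had no other site, so that no other base could score higher there. Genes with a site at this base ran from 71 to 82 nt among members and from 71 to 98 nt off the list. They were taken by their distance to the 3′ end, so their lengths are no check that this distance was kept. In standard tRNA numbering the last base before the added CCA is 73. The 16th base from the 3′ end is then base 58 of the T loop, an adenosine methylated in many eukaryotic tRNAs. Methylation was not measured in these data, and its part in the sites was not tested. Only 1 of the 650 sites in members, and 1 of 59 in genes off the list, lay nearer to the 3′ end than the 14th base. The part of the shortest read kept, which is not given, was not tested.

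Sites at this base were present in 2 of the 33 listed genes that are alone in their family and in 27 of the 53 with sister copies and a site. The anticodon peak ran the other way. Among genes of 71 to 74 nt with a site, positions 32 to 38 were occupied in 21 of 24 genes alone in their family and in 24 of 44 with sister copies, where they held 45.6% and 29.4% of the sites. The median number of sites was 10 in listed genes alone in their family and 4 in those with sister copies, and the medians of the highest score were 97.8 and 43.9, over overlapping ranges of 4.39 to 708 and 0.466 to 708. Sister copies were counted as separate genes in these comparisons, though they may draw on the same reads.

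**Figure D4:**
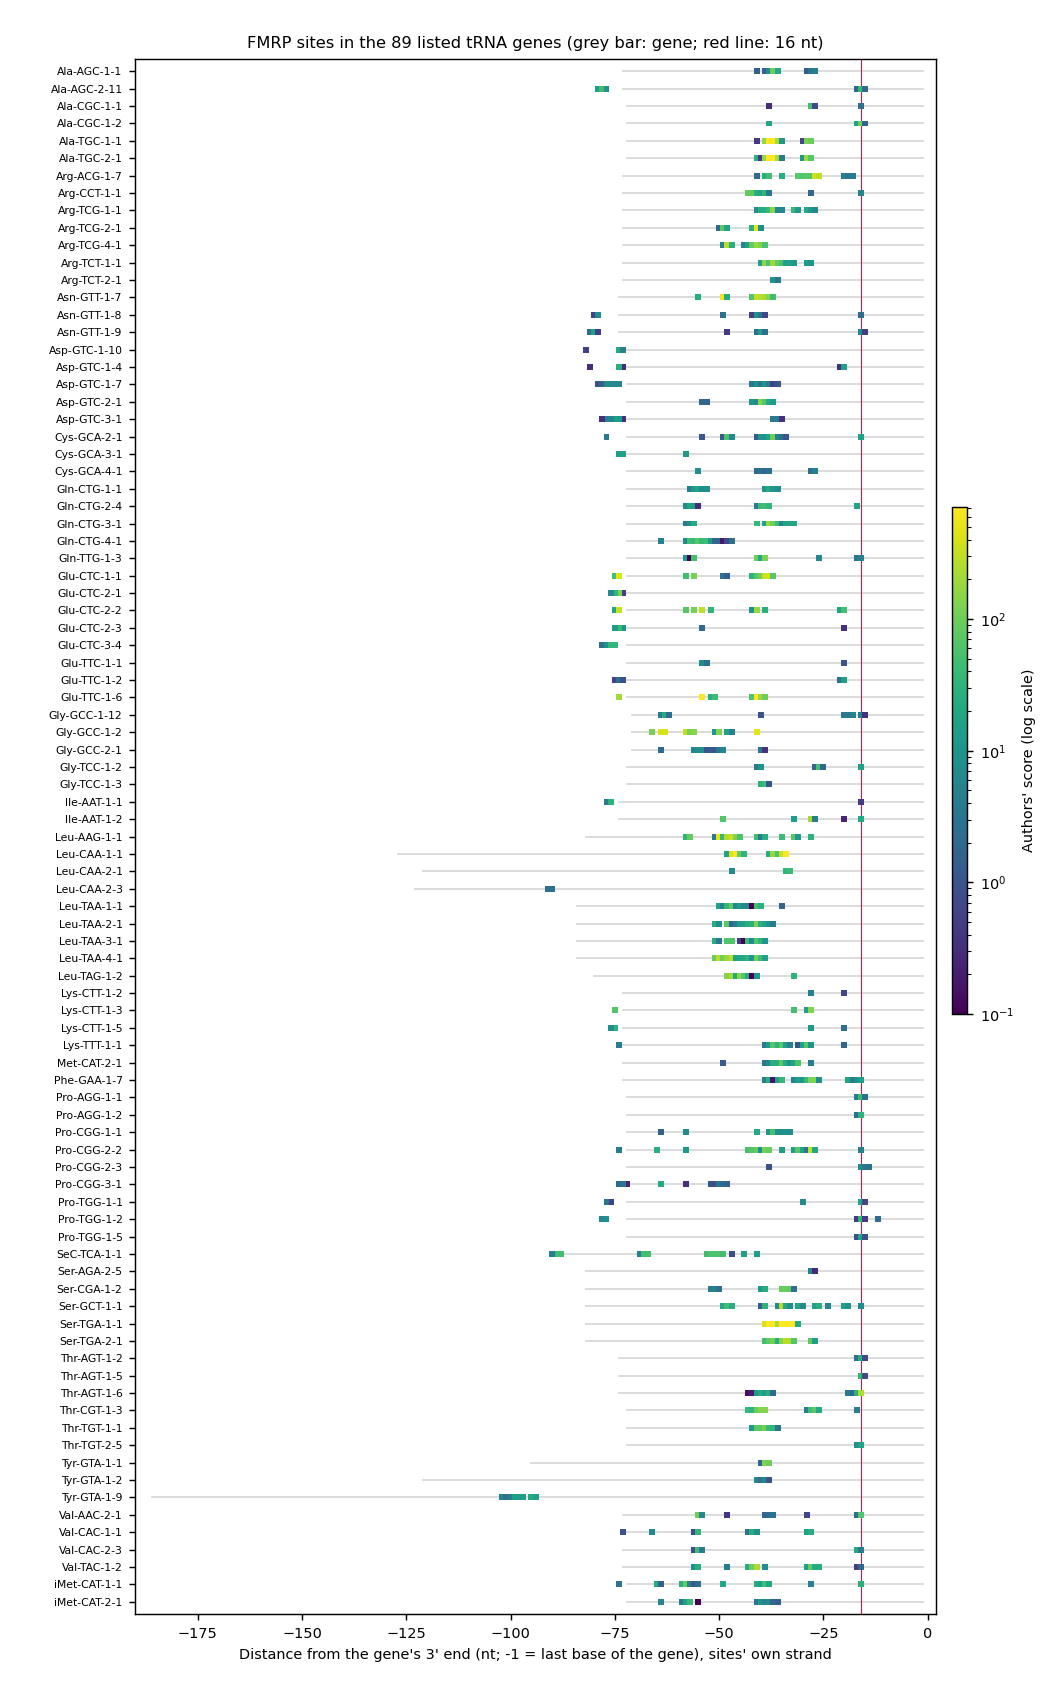
Sites in each of the 89 listed tRNA genes (rows, by amino acid), plotted by distance from the 3′ end of the gene in nt (horizontal axis) and coloured by the authors' score on a log scale (scores under 0.1 drawn as 0.1). Grey bars are the genes, squares left of a bar are sites before the 5′ end, and the red line marks the 16th base from the 3′ end, where 29 genes have a site.

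Just before the genes a further set of sites was found. Within 50 nt outside the members there were 65 sites, all of them before the 5′ end, and at most 10 nt away. In members with sites inside the gene, all leader sites were on the strand of those sites. None of the 65 lay after the 3′ end (exact upper bound 5.52%). They belonged to 26 members, and 39 of them lay 1 to 3 nt before the gene. A site exactly 2 nt before the gene was present in 18 members. The tRNA genes off the list showed the same layout, with 25 sites before 17 genes, at most 10 nt away, and 0 after them. Of these genes, 10 had no site inside, so their strand was taken from the outside sites themselves. Positions just before the gene belong to the 5′ leader of the precursor, which RNase P removes. The part of the shortest read kept in the lack of sites after the genes was not tested.

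The 3 members with no site inside the gene had leader sites. tRNA:Glu-CTC-2-1 had 0 sites in its span and 4 before it, at 1 to 4 nt, with a highest score of 118. tRNA:Glu-CTC-3-4 had 4 before it, at 3 to 6 nt, with a highest score of 34.6. tRNA:Asp-GTC-1-10 had 3 before it, at 1, 2 and 10 nt, with a highest score of 22.5. With 10 nt added on both sides, all 89 members held a site. The strand of these 3 genes was taken from the leader sites themselves.

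Glutamate and aspartate genes carried most of the leader sites. A leader site was present in 7 of 8 listed glutamate genes, with 19 sites, and in 4 of 5 listed aspartate genes, with 18. In tRNA:Glu-CTC-1-1 the leader site 2 nt before the gene scored 456, above the highest score of 412 inside it. In tRNA:Glu-CTC-2-2 the leader reached 346 and the gene 309. tRNA:Glu-CTC-2-3 had a leader score of 40.1 against 2.14 inside, where it had 2 sites. Of the 23 members with sites in both places, 10 had the higher score in the leader.

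Aspartate genes gave a mixed picture. tRNA:Asp-GTC-2-1 had 8 sites, a highest score of 139 and no leader site. tRNA:Asp-GTC-1-7 had 7 sites at positions 31 to 37 with a highest score of 9.58, and 6 leader sites of up to 6.87. tRNA:Asp-GTC-3-1 had 3 sites inside, of up to 4.39, and 6 in the leader, of up to 13.6. tRNA:Asp-GTC-1-4 had 2 inside, of up to 16.1, and 3 in the leader, of up to 27.3. Leader sites lay before 19 of 56 listed genes with sister copies and 7 of 33 without. tRNA:Asp-GTC-1-12, a gene off the list singled out after its value was seen, had no site inside and 1 leader site with a score of 265.

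**Figure D5:**
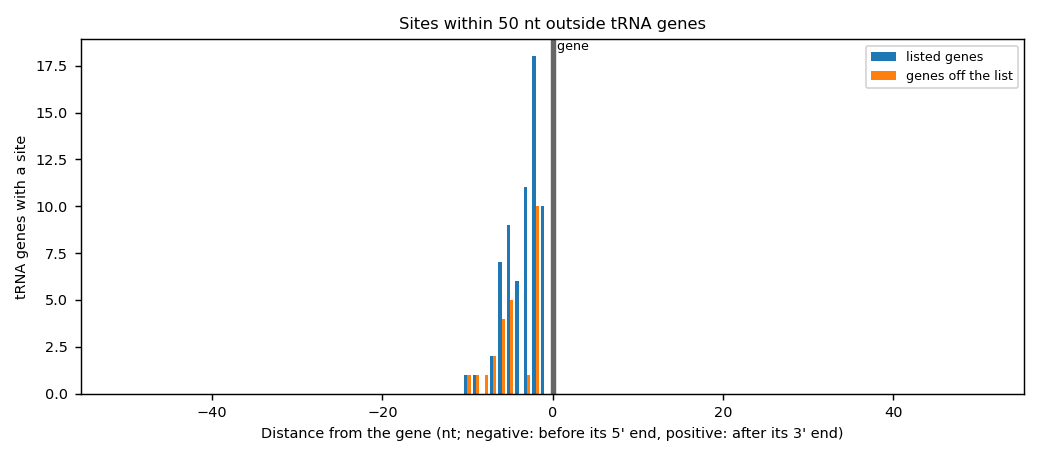
Number of tRNA genes with a site (vertical axis) at each distance of up to 50 nt outside the gene (horizontal axis, negative before the 5′ end, positive after the 3′ end), for listed genes and genes off the list. All sites lie within 10 nt before the gene, most often at 2 nt, with 18 listed genes.

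Members with a long variable arm, 80 to 87 nt in length, were 12 leucine, serine and SeC genes with 133 sites. Positions 39 to 52, from the anticodon arm into the variable arm, held 57.1% of them, in 11 genes. Positions 32 to 38 held 29.3%, in 9 genes. Leucine sites had a median position of 40 over 6 genes and serine sites one of 49 over 5 genes. The 4 Leu-TAA genes, each alone in its family and spread over 2L and 3R, had 12, 14, 11 and 13 sites in the order of their family numbers, all between positions 34 and 50, with highest scores of 81.0, 125, 65.4 and 272. tRNA:Ser-TGA-2-1 had 10 sites from position 44 to 56 and a highest score of 284. The SeC gene had 11 sites from position 19 to 47, a highest score of 59.1 and 3 leader sites.

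Genes of the intron-bearing groups Leu-CAA and Tyr-GTA made up 6 members of 95 to 186 nt. tRNA:Leu-CAA-1-1, of 127 nt, had 10 sites between positions 80 and 94, which is 34 to 48 nt from the 3′ end. tRNA:Tyr-GTA-1-1, of 95 nt, had 3 sites at 38 to 40 nt from the 3′ end, with a highest score of 128. tRNA:Tyr-GTA-1-2, of 121 nt, had 4 at 38 to 41 nt, with a highest score of 5.66. tRNA:Tyr-GTA-1-3, which is off the list and 94 nt long, had 4 at the same 38 to 41 nt. Over the 86 members with a site, the 39th base from the end had one in 45, tRNA:Tyr-GTA-1-1 and tRNA:Tyr-GTA-1-2 among them. Those genes ran from 71 to 121 nt, so this base is not the same part of the tRNA in each. Whether the tyrosine sites lay in the intron or beside it was not read. In tRNA:Leu-CAA-1-1, 5 of the 10 sites lay farther from the end, at 44 to 48 nt.

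The other intron-bearing members differed. tRNA:Tyr-GTA-1-9, of 186 nt, had 8 sites at 94 to 102 nt from the 3′ end and a highest score of 22.7. tRNA:Leu-CAA-2-3, of 123 nt, had 2 sites, at positions 33 and 34 from the 5′ end, both scoring 2.54. tRNA:Leu-CAA-2-1, of 121 nt, had 3 sites at 33 to 47 nt from the 3′ end and a highest score of 41.7. Exon borders were not used here.

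Copies of the same mature sequence differed widely in sites in some families, and little among the listed copies of others. How reads were placed among such copies is not given in the sources used here. In the Glu-CTC-2 family all 3 genes were listed, with 0, 9 and 2 sites inside. In the Glu-CTC group as a whole, 5 of 13 genes were listed, and the remaining listed genes were tRNA:Glu-CTC-1-1 with 10 sites and tRNA:Glu-CTC-3-4 with 0. Among the 3 listed of 5 Pro-TGG copies, the counts were 3, 4 and 3, with highest scores of 18.7, 36.0 and 18.1. In the family of 13 Lys-CTT copies, the 3 listed genes had 2, 3 and 2 sites, and 8 copies had none.

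The border of the target list was not a fixed number of sites. Of the tRNA genes off the list, 29 had 1 site, 8 had 2 or 3 and 3 had 4, whereas 29 members had 1 to 4. tRNA:Ser-GCT-2-3 had 4 sites and a highest score of 12.2, tRNA:Tyr-GTA-1-3 had 4 and 5.27, and tRNA:Pro-AGG-1-7 had 4 and 4.49, and these were off the list. tRNA:Gly-TCC-1-4 had 3 sites and 2.52, and tRNA:Gly-GCC-1-1 had 3 sites and 2.28. On the list, tRNA:Ile-AAT-1-1 had 1 site with a score of 0.466 and 2 leader sites of up to 30.2, and tRNA:Cys-GCA-3-1 had 1 site of 11.6 and 2 leader sites of up to 16.6. The rule that turned sites into targets is not given in the sources used here.

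Many tRNA genes lie inside other genes. Of the 89 members, 41 overlapped another gene of the table, as did 94 of the 201 genes off the list. Members had a median of 7 sites with such an overlap and 9 without. For 28 of the 41, no further site lay within 50 nt outside the tRNA gene. The 41 fell in 32 other genes, of which 17 were on the target list themselves, and 24 members lay in such a listed gene. The spans of these other genes can hold the sites of the tRNA gene, so genes with a site are the nearer background. With at least 1 site in the span there were 2682 genes, of which 1823 were listed, a larger share than 17 of 32. The part of sites in tRNA genes in the listing of those 17 genes was not tested.

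Genes of proteins that act on tRNAs gave small counts, which are read against a background of 11.2% of protein-coding genes. Aminoacyl-tRNA synthetases charge tRNAs with amino acids. Of 36 genes of these enzymes, counting the synthetase-like gene Slimp, 2 were targets. They were AspRS-m, a mitochondrial synthetase gene, with 17 sites in its span, and IleRS with 3. Of 9 matched tRNA processing genes, 2 were targets, Rpp20, a subunit gene of RNase P, with 18 sites and the splicing endonuclease gene Tsen54 with 11. None of 12 matched tRNA modification genes and none of 6 genes of RNA polymerase III and its factors was a target, and of these 18 only Brf with 3 sites and Maf1 with 2 had any. Sites in the span include those of overlapping genes.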

How the data were processed

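Enhanced CLIP libraries of 2 FMRP immunoprecipitates and 1 size-matched input were summarised in 2 deposited lists that cover the series. The authors deposited a score per 1-nt site, with no stated unit, and a column of target gene names. The submitters' processing notes name STAR 2.7.3a, SAMtools 1.10, cutadapt 2.9, DESeq2 and UMI-tools without saying what each did. How sites were called, on which build, how reads that map to several genes were placed, the shortest read kept and any pooling of libraries were not given in the sources used here.

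From these, sites were placed in the spans of the RefSeq gene table of Drosophila Release 6 (python 3.11.15, pandas 2.3.3, scipy 1.17.1). Of 1829 names, 1827 matched a gene. The table holds no strand, so sites on either strand were counted and positions were read on the sites' own strand. Gene windows reached 50 nt outside each gene. Intervals of shares are 95% Clopper-Pearson (exact) and speak to counting error alone. Position reading was tested on simulated data. Named were the 12 members with most sites, those with the highest scores, members with no site, the groups with most listed copies and the 5 genes off the list with most sites; other members are named as examples of a pattern after their values were seen. The members and lists were chosen with earlier results of these data known. Base sequence was not analysed here.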

Additional observations from a re-analysis of the deposited data

How the results depend on the processing

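Most values changed little with the processing. The number of members with a site, 86, was 89 with genes extended by 10 or 50 nt, 83 and 79 with only sites at or above the median or the upper quartile of all scores, and 84 when 2 sites were required. Their 650 sites were 715 with 10 nt added and 523 at or above the median score, and they formed 230 unbroken runs. The share of sites in the first of 3 equal parts of the gene, 16.8%, ran from 14.7 to 18% with the score minimum, equal weight per gene or sites moved by 1 base, and was 13.9% with 1 gene per anticodon group. The median highest score, 66.5, was 65.4 with 10 nt added, and the median score per gene had a median of 12.6. Listed genes were 30.7% of all tRNA genes and 68.3% of those with a site. Alternatives chosen after seeing the data left out leucine, serine and SeC genes or genes inside another gene: 85.7 and 88.2% of genes alone in their family, and 22.8 and 23.9% of the others, were then listed. Counting either strand is the main setting, since no strand was given. No paired analysis was possible because the lists hold no value per library, and for the same reason no library could be left out.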
